A study of Mus musculus with 2 samples.

Results

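The 9 genes described here make, carry and sense lipid mediators of acute inflammation and of its resolution, and they were taken by symbol from the 32285 genes listed in the deposited matrices of mouse maxillary periodontium, the tissue that holds the upper teeth. They are the lipoxygenase genes Alox5, Alox15 and Alox12, the 5-lipoxygenase activating protein gene Alox5ap, the leukotriene A4 hydrolase gene Lta4h, the receptor genes Ltb4r1, Fpr2 and Cmklr1, and the annexin gene Anxa1. All 9 were found and had at least 1 UMI in the kept cells of both libraries. The data are 2 single-cell droplet libraries, titled 377P and RP, made with the 3' v3 chemistry of 10x Genomics, in which a unique molecular identifier (UMI) marks each captured mRNA. The title of the series speaks of the resolution of periodontitis in diabetic mice, but the labels give neither genotype, treatment, time nor age, do not say what 377P or RP stands for, and do not give the number of animals behind a library. Neither library is therefore treated as a control. Since each title has 1 library, no difference can be checked against replicates, no test was possible, and every interval below is a 95% interval that covers counting error only.

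Arachidonic acid released from membranes is oxidised by lipoxygenases. 5-lipoxygenase, presented with its substrate by the membrane protein FLAP (the product of Alox5ap), makes leukotriene A4, which leukotriene A4 hydrolase turns into leukotriene B4, a strong attractant of neutrophils that acts through BLT1, the product of Ltb4r1. The 12- and 15-lipoxygenating enzymes of Alox12 and Alox15 take part in the synthesis of lipoxins, resolvins and related mediators, for which FPR2 and CMKLR1 have been described as receptors, and annexin A1 is a protein ligand of FPR2 released by neutrophils and epithelia. In periodontal tissue leukotriene B4 is known from inflamed gingiva, and lipoxins and resolvin E1 are known from work on the resolution of periodontitis.

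Among the compared classes, Alox5 and the 3 receptor genes stood highest in myeloid cells. So did Alox5ap, for which no RefSeq entry was matched, and Lta4h, which was found in every class and is not shown. The stretches of DNA just upstream of the first 4 are printed here. Each runs over the 150 bases that end at the base before the RefSeq start site (build GRCm38.p6) and is written 5′ to 3′ on the gene's own strand, with GAGGAA, letters common in sites bound by the myeloid factor PU.1, or its reverse complement TTCCTC in capitals. Alox5 is on the minus strand (chr6:116461179-116461328), Ltb4r1 on the plus strand (chr14:55765812-55765961), Fpr2 on the plus strand (chr17:17887674-17887823) and Cmklr1 on the minus strand (chr5:113643604-113643753), where the RefSeq start lies inside the longer gene model of the annotation.
Alox5: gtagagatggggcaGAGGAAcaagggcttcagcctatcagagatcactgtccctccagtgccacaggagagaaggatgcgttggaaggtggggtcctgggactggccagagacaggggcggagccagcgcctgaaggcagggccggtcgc
Ltb4r1: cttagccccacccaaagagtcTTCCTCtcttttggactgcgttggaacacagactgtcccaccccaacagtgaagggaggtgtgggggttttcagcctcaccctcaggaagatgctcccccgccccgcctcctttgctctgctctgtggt
Fpr2: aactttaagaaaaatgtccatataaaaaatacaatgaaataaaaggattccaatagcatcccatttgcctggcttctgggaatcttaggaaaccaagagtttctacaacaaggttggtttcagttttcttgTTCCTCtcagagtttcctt
Cmklr1: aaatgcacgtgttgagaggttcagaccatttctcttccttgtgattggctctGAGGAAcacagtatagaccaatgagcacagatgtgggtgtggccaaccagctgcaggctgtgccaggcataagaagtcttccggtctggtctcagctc
RefSeq entries were matched for 7 of the 9 genes. In windows of 250 bases before the start, searched on both strands, GAGGAA occurred in 7 of these 7, including Alox12, Lta4h and Anxa1, which were not restricted to myeloid cells, against 23.3% of all 32851 promoters. GGGCGG occurred in the windows of Alox5, Alox12 and Ltb4r1 and in 32.7% of all promoters, and TTGCNNAA in that of Anxa1 and in 9.56%. A match describes the letters in the window and nothing about binding.

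The libraries were of similar size. The 377P matrix held 15466 barcodes and 127094166 UMIs (median 5288 per barcode), and RP held 18112 barcodes and 120909095 UMIs (median 4144). After filters and removal of called doublets, 14515 and 16721 cells were kept. They formed 50 clusters, of which those with enough fixed markers were named as 15 classes, and 12 classes had at least 100 cells in each library and were compared. Among these were 130 and 174 neutrophil-like cells (all 9 neutrophil markers detected), 434 and 813 monocyte or macrophage-like cells, 111 and 167 dendritic cell-like cells, 3277 and 3577 keratinocyte-like cells, and 200 and 2489 gland or respiratory epithelium-like cells, the first count in each pair being that of 377P. No cluster took the name of eosinophils, platelets or osteoclasts. Unnamed clusters held 8.01% and 4.31% of the kept cells. A total of 82 barcodes occurred in both matrices. Several large classes were split into clusters that belonged almost wholly to 1 library, so that a cluster may be a library rather than a type. The members were not held out of the clustering, and levels across clusters are descriptions. Markers of gland cells were found in every class and, outside the gland class itself, summed higher in RP: their sums were 1335 CPM (377P) and 9023 CPM (RP) in keratinocyte-like cells, 1587 and 10895 CPM in fibroblast-like cells, and 2832 and 17085 CPM in neutrophil-like cells.

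Levels are given as CPM, the UMIs of a gene per 1000000 UMIs summed over the cells of a class, so that each class in each library gives 1 value. Alox5, Alox5ap and Fpr2 were highest in myeloid cells, Alox15 and Alox12 were mostly epithelial, Ltb4r1 was shared between neutrophils, other leukocytes and keratinocytes, Cmklr1 lay in macrophages and fibroblasts, and Lta4h and Anxa1 were present in all 12 classes.

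**Figure D1:**
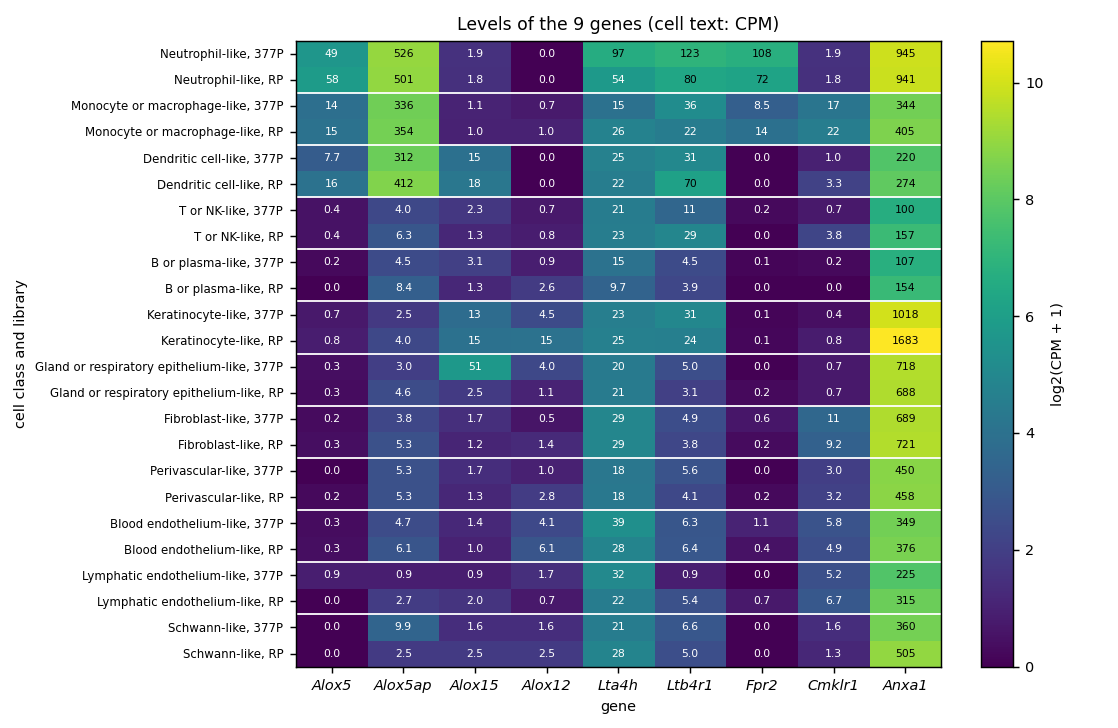
Level of each gene (columns) in each compared class and library (rows); colour is log2(CPM + 1) and the number in each cell is the CPM. Alox5 and Alox5ap stand out in the 3 myeloid classes of both libraries, with Alox5ap at 312 to 526 CPM there, while Lta4h and Anxa1 have colour in every row.

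Alox5 (ENSMUSG00000025701, GRCm38 chromosome 6, 116410077 to 116461178, minus strand) encodes 5-lipoxygenase. Among the compared classes it was highest in neutrophil-like cells, at 48.6 CPM in 377P (26 UMIs, 31.8 to 71.3) and 57.9 CPM in RP (32 UMIs, 39.6 to 81.7). Monocyte or macrophage-like cells followed with 13.9 CPM (9.87 to 19.0) and 15.5 CPM (11.8 to 19.9), and dendritic cell-like cells with 7.74 CPM (3.34 to 15.2) and 15.6 CPM (8.52 to 26.1). The neutrophil-like level was above the next class in both libraries without overlap of the intervals, whereas the macrophage-like and dendritic cell-like levels overlapped. In the other 9 compared classes the level stayed between 0 and 0.866 CPM. Keratinocyte-like cells held 26.8% of the gene's UMIs in 377P and 19.8% in RP, but at 0.664 and 0.794 CPM, in the class with the most UMIs in total.

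At least 1 UMI of Alox5 was seen in 17.7% (377P) and 15.5% (RP) of neutrophil-like cells, at median depths of 2525 and 1775.5 UMIs per cell. In fibroblast-like cells, which should lack the gene, the shares were 0.19% and 0.158% at medians of 6704 and 4659.5 UMIs. With each cell thinned to 1000 UMIs, the neutrophil-like shares were 6.09% (7 of 115 cells, 2.48 to 12.1, 15 shallower cells left out) and 5.92% (9 of 152, 2.74 to 10.9, 22 left out), and the fibroblast-like shares 0 of 2621 and 1 of 3766 cells. The neutrophil-like shares lay above the fibroblast-like ones in both libraries, and the intervals of the 2 libraries overlapped over nearly their whole length.

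Within the macrophage-like class, Alox5 was concentrated in cluster 26, whose leading genes C1qa, Mrc1, Pf4 and F13a1 are known from resident tissue macrophages. There it stood at 47.9 CPM (18 UMIs in 53 cells, 28.4 to 75.7) in 377P and 40.7 CPM (44 UMIs in 300 cells, 29.6 to 54.6) in RP. In cluster 25, led by Tyrobp, Ctss, Spp1 and Chil3, it stood at 8.62 CPM (381 cells, 5.34 to 13.2) and 5.73 CPM (513 cells, 3.28 to 9.31). The level in cluster 26 was 5.55 times that in cluster 25 in 377P (2.79 to 10.9) and 7.09 times in RP (3.92 to 13.5). In both libraries the level of Alox5 in cluster 26 lay within the interval of the neutrophil-like class. Neutrophil markers summed to 141 and 151 CPM in cluster 26 (7 of 9 detected, Ly6g and Mmp8 at 0) and to 291 and 682 CPM in cluster 25 (8 of 9, Ly6g at 0), against 123814 and 100728 CPM in the neutrophil-like class.

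**Figure D2:**
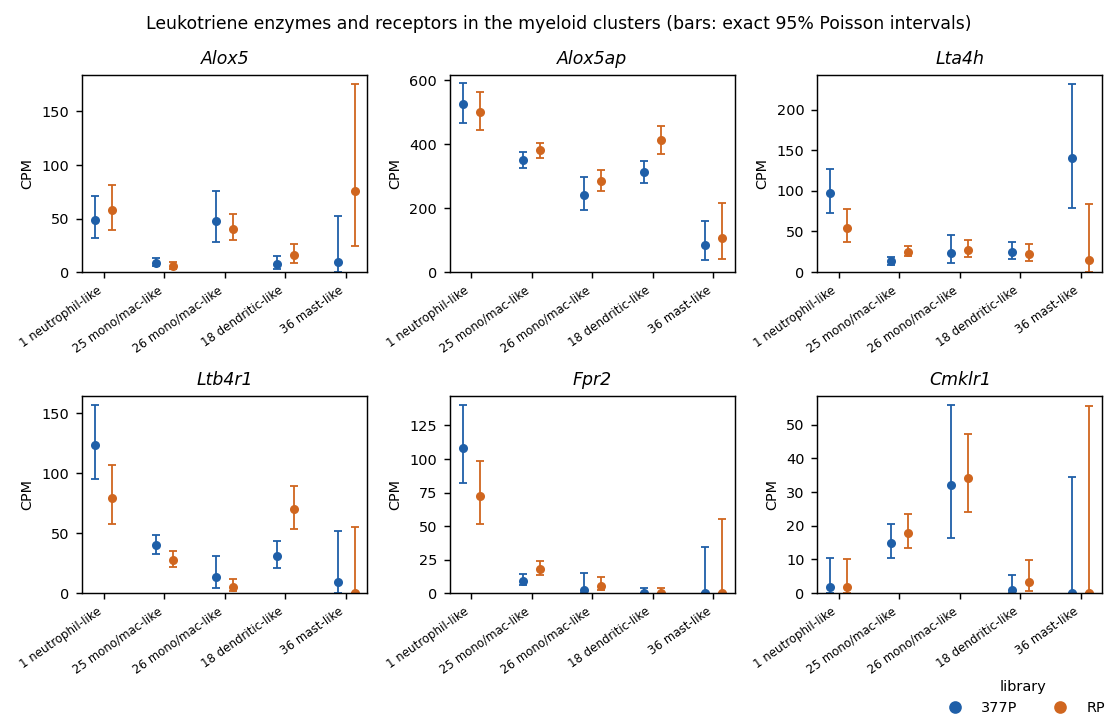
CPM (vertical axis, linear) of 6 genes in the 5 myeloid clusters, points for the libraries and bars for exact 95% Poisson intervals. Alox5 is high in clusters 1 and 26 and low in cluster 25, Fpr2 is highest in cluster 1, and Cmklr1 is highest in cluster 26; cluster 36 has 30 and 36 cells and wide bars.

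Alox5ap (ENSMUSG00000060063, chromosome 5, 149264767 to 149288153, plus strand) encodes FLAP. It was carried by all 3 myeloid classes: 526 CPM (281 UMIs) and 501 CPM (277 UMIs) in neutrophil-like cells, 336 CPM (944 UMIs) and 354 CPM (1372 UMIs) in macrophage-like cells, and 312 CPM (323 UMIs) and 412 CPM (370 UMIs) in dendritic cell-like cells, with 377P first. Every other compared class lay between 0.866 and 9.87 CPM. The mast cell or basophil-like cluster 36, too small to compare, stood at 92.4 CPM over both libraries (16 UMIs in 66 cells). Unlike Alox5, Alox5ap was lower in cluster 26 than in cluster 25, at 0.691 times the level in 377P (0.551 to 0.859) and 0.750 times in RP (0.659 to 0.852). The share of cells with a UMI, after thinning, was 42.6% and 42.8% in neutrophil-like cells, 25.8% and 28.5% in macrophage-like cells, and 0.382% and 0.717% in fibroblast-like cells. Unthinned, it was 70.8% and 65.5%, 61.5% and 62.9%, and 2.81% and 2.69%. The dendritic cell-like ratio of RP over 377P was 1.32 (1.13 to 1.54) and the other 2 myeloid ratios were 0.954 (0.805 to 1.13) and 1.05 (0.970 to 1.15). An annotated antisense gene, Gm19719, shares 189 exon bases with Alox5ap. The sources used here do not state whether strand was used in the counting. Whether reads of the pair were kept apart is therefore not known here.

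Of the neutrophil-like cells with a UMI of Alox5, 21 of 23 in 377P (91.3%) and 21 of 27 in RP (77.8%) also had one of Alox5ap, against 66.4% and 63.3% of the cells without Alox5. In the macrophage-like class this was 21 of 27 (77.8%) and 44 of 55 (80.0%), against 60.4% and 61.6%. The Alox5-positive neutrophil-like cells were deeper, with medians of 6591 and 4369 UMIs against 2168 and 1666, and the part of depth in the co-detection was not tested. After thinning, 4 of 7 and 1 of 9 Alox5-positive neutrophil-like cells had Alox5ap, too few for a comparison.

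Lta4h (ENSMUSG00000015889, chromosome 10, 93453411 to 93484875, plus strand) encodes the hydrolase that completes the synthesis of leukotriene B4, and unlike Alox5 it was found in every class. Among the compared classes its level was highest in neutrophil-like cells, at 97.3 CPM in 377P (52 UMIs) and 54.3 CPM in RP (30 UMIs), a ratio of RP over 377P of 0.558 (0.344 to 0.891). The UMIs sat in few cells: 5 cells held 44.2% of them in 377P and 60.0% in RP. The other 11 classes lay between 9.73 and 39.02 CPM, and neighbouring classes in that order overlapped in at least 1 library: blood endothelium-like cells were at 39.02 and 27.8 CPM, fibroblast-like cells at 29.2 and 28.9 CPM, and keratinocyte-like cells, with 1192 and 998 UMIs the best counted, at 23.3 and 24.7 CPM (ratio 1.06, 0.977 to 1.16). In macrophage-like cells the direction was opposite to that in neutrophil-like cells, with 14.9 and 25.8 CPM (ratio 1.73, 1.19 to 2.54); this held in cluster 25 (13.6 and 25.1 CPM, ratio 1.85), while cluster 26 was at 24.0 and 27.7 CPM (ratio 1.16). The mast cell or basophil-like class, too small to compare, stood at 140 CPM of Lta4h in 377P (15 UMIs in 30 cells, 78.6 to 232) and 15.1 CPM in RP (1 UMI in 36 cells, 0.381 to 83.9). It had 9 and 7 UMIs of Alox5ap and 1 and 5 of Alox5. Over both libraries its 66 cells stood at 34.6 CPM of Alox5, rank 3 of the 50 clusters after clusters 1 (53.3 CPM) and 26 (42.5 CPM).

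Ltb4r1 (ENSMUSG00000046908, chromosome 14, 55765962 to 55768494, plus strand) encodes BLT1, the high-affinity receptor of leukotriene B4. Neutrophil-like cells had the highest level of the compared classes, 123 CPM in 377P (66 UMIs) and 79.6 CPM in RP (44 UMIs), a ratio of 0.645 (0.430 to 0.959). In RP the neutrophil-like interval (57.8 to 107 CPM) overlapped that of dendritic cell-like cells (53.9 to 89.7 CPM), so their order there is not settled. Dendritic cell-like cells had 30.9 CPM (32 UMIs) and 70.1 CPM (63 UMIs), a ratio of 2.27 (1.46 to 3.59), and macrophage-like cells 36.3 CPM (102 UMIs) and 21.7 CPM (84 UMIs), a ratio of 0.598 (0.442 to 0.806). The 3 myeloid classes thus did not share a direction. In the dendritic cell-like class the macrophage markers summed to 2747 and 3993 CPM (11 of 11 detected in both), the neutrophil markers to 468 and 266 CPM (8 and 7 of 9 detected, Ly6g at 0 in both and Mmp8 in RP), and the dendritic cell markers to 923 and 688 CPM; their part in the ratio was not tested. The share of dendritic cell-like cells with a UMI was 20.7% and 26.3%, and after thinning 4.50% (1.48 to 10.2) and 8.61% (4.66 to 14.3), with overlapping intervals.

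Most of the Ltb4r1 UMIs were epithelial. Keratinocyte-like cells held 72.5% of them in 377P (1564 UMIs, 30.5 CPM) and 65.1% in RP (952 UMIs, 23.6 CPM), a ratio of 0.773 (0.713 to 0.839), and their level was 6.29 times that of fibroblast-like cells in 377P (5.14 to 7.77) and 6.21 times in RP (4.94 to 7.92). It was similar in clusters 2 (377P, 30.4 CPM) and 47 (RP, 31.8 CPM), both led by genes that include Krt5, a keratin of basal epithelium. In clusters 7 and 8, both led by genes that include Krt10, a keratin of differentiating layers, it stood at 33.2 CPM (377P) and 26.4 CPM (RP). It was lower in cluster 37 (8.87 and 8.99 CPM) and in cluster 38, which held 742 cells of RP, none of 377P and stood at 15.8 CPM (13.0 to 19.1), and the 63 cells of RP in cluster 9 had no UMI (up to 13.4 CPM). After thinning, 3.20% and 3.02% of keratinocyte-like cells had a UMI, against 0.267% and 0.558% of fibroblast-like cells (unthinned 35.6% and 22.0% against 3.72% and 2.06%, at keratinocyte-like medians of 14475 and 9910 UMIs).

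Among T or NK-like cells Ltb4r1 was concentrated in cluster 10, led by Il17a, Trdc, Cd163l1 and Il23r, genes known from interleukin-17-producing gamma-delta T cells. There it stood at 83.1 CPM in 377P (50 UMIs in 163 cells, 61.7 to 110) and 104 CPM in RP (59 UMIs in 175 cells, 78.8 to 134). The other T or NK-like clusters together were at 5.62 and 5.51 CPM. The level in cluster 10 was 14.8 times theirs in 377P (9.75 to 22.4) and 18.8 times in RP (9.54 to 41.2). Over the whole T or NK-like class the level was 10.7 CPM (98 UMIs) and 28.9 CPM (69 UMIs), a ratio of 2.70 (1.95 to 3.71), but cluster 10 made up 8.51% of that class in 377P and 24.9% in RP, and within cluster 10 the ratio was 1.25 (0.840 to 1.85).

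Fpr2 (ENSMUSG00000052270, chromosome 17, 17887824 to 17893952, plus strand), the receptor gene for lipoxin A4, annexin A1 and formyl peptides, was found in neutrophils and, at a lower level, in macrophages. Neutrophil-like cells had 108 CPM in 377P (58 UMIs) and 72.4 CPM in RP (40 UMIs), and macrophage-like cells 8.54 CPM (24 UMIs) and 14.5 CPM (56 UMIs). The neutrophil-like level was 12.7 times the macrophage-like one in 377P (7.77 to 21.4) and 5.005 times in RP (3.25 to 7.64). Every other class lay at or below 1.10 CPM, and no UMI was seen in 111 and 167 dendritic cell-like cells. Between the libraries the neutrophil-like ratio was 0.667 (0.434 to 1.02) and the macrophage-like ratio 1.69 (1.03 to 2.86). The macrophage UMIs lay mainly in cluster 25 (9.45 and 17.9 CPM), with 1 and 6 UMIs in cluster 26. The neutrophil markers in cluster 25 also summed higher in RP, as given above, and their part in the Fpr2 values was not tested. Of neutrophil-like cells 25.4% and 14.9% had a UMI, and 13.9% (8.17 to 21.6) and 6.58% (3.20 to 11.8) after thinning, against 0.0382% and 0.0531% of thinned fibroblast-like cells. Fpr2 shares 48 exon bases with Fpr3, a close paralog on the same strand, and the part of reads from those bases in its count was not tested.

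Cmklr1 (ENSMUSG00000042190, chromosome 5, 113612354 to 113650426, minus strand), the receptor gene for chemerin that has also been described for resolvin E1, was highest in macrophages and fibroblasts among the compared classes. Macrophage-like cells had 17.1 CPM in 377P (48 UMIs) and 22.5 CPM in RP (87 UMIs), a ratio of 1.32 (0.914 to 1.91) whose log2 value turned from 0.40 to -0.16 when cells were thinned to 1000 UMIs. Cluster 26 had 31.9 and 34.2 CPM and cluster 25 had 14.8 and 17.9 CPM, a difference of 2.16 times in 377P (1.02 to 4.25) and 1.91 times in RP (1.21 to 2.98). Fibroblast-like cells had 10.9 CPM (226 UMIs) and 9.18 CPM (191 UMIs), with a ratio of 0.845 (0.694 to 1.03), and held 64.6% and 47.2% of the gene's UMIs. Lymphatic and blood endothelium-like cells were at 4.93 to 6.74 CPM, and neutrophil-like cells had 1 UMI in each library, which allows up to 10.4 and 10.1 CPM. Keratinocyte-like cells were at 0.351 CPM (18 UMIs) and 0.769 CPM (31 UMIs); the ratio of 2.19 (1.19 to 4.15) is one between levels under 1 CPM, and with a per-cell marker gate its log2 value turned from 1.13 to -0.13. Chemerin itself, encoded by Rarres2, was highest in fibroblast-like cells, at 340 and 322 CPM, the class that also held the largest number of UMIs of the receptor. An antisense gene, Gm15736, overlaps Cmklr1 without sharing exon bases.

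Alox15 (ENSMUSG00000018924, chromosome 11, 70344152 to 70352031, minus strand) encodes the mouse 12/15-lipoxygenase, known from resident macrophages, eosinophils and airway epithelium. Here macrophage-like cells had 3 and 4 UMIs (1.07 and 1.03 CPM). Its UMIs were epithelial, with 663 (12.9 CPM) and 607 (15.1 CPM) in keratinocyte-like cells, 153 (51.0 CPM) and 63 (2.51 CPM) in gland or respiratory epithelium-like cells, and 480 in the unnamed clusters of 377P. Dendritic cell-like cells had 15 UMIs (14.5 CPM) and 16 UMIs (17.8 CPM), which was 13.6 times the macrophage-like level in 377P (3.84 to 73.2) and 17.2 times in RP (5.56 to 70.9), although in 377P the 15 UMIs came from 6 cells. In that class macrophage markers summed to 2747 and 3993 CPM and dendritic cell markers to 923 and 688 CPM. With clusters at resolution 1.0 no dendritic cell-like class was found. The macrophage-like class then held 541 and 983 cells in place of 434 and 813. The part of this grouping in the Alox15 contrast was not tested. The remaining compared classes lay between 0.866 and 3.08 CPM.

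The epithelial Alox15 lay in rare cells. Among keratinocyte-like cells, cluster 37, led by Sprr1a, Reg3g, Cyp2a5, Bpifa1 and Krt4, had 501 CPM in 377P (565 UMIs in 50 cells, 461 to 544) and 78.6 CPM in RP (560 UMIs in 426 cells, 72.3 to 85.4), against 1.96 and 1.42 CPM in the other keratinocyte-like clusters. In 377P the 565 UMIs came from 22 of the 50 cells, 185 of them from 1 cell, and 5 cells held 77.5%. In RP the 560 UMIs came from 112 of 426 cells, with at most 40 in a cell. The leading genes of cluster 37 also included Cbr2 and Cyp2f2, and Cbr2 was among those of the unnamed cluster 23 as well. Keratinocyte markers summed to 26274 CPM (377P) and 26200 CPM (RP) in cluster 37, and gland or respiratory epithelium markers to 3615 and 11026 CPM. Which epithelium its cells come from was not tested. The unnamed cluster 23, led by Scgb1c1, Bpifb3 and Chil4, had 71.0 CPM of Alox15 (414 UMIs from 55 of 411 cells) and 19.5 CPM of Alox12 in 377P, and held 3 cells of RP. The unnamed cluster 44, led by the ciliary genes Dnah12, Tmem212 and Ccdc153, had 640 and 146 CPM in 5 and 27 cells. Counting intervals treat UMIs as independent, so with such clumped counts they are too narrow.

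The 20.3-fold higher Alox15 level of 377P in gland or respiratory epithelium-like cells (15.04 to 27.7) rested on cluster 40, in which 5 of 24 cells of 377P held 144 UMIs, 104 of them in 1 cell, and 5 of 102 cells of RP held 28. Without cluster 40 the level was 3.55 CPM (9 UMIs) and 1.57 CPM (35 UMIs), a 2.25-fold difference with an interval that includes 1 (0.952 to 4.78), and with a per-cell marker gate the log2 ratio of RP over 377P was -1.39 in place of -4.34. The gland markers in cluster 40 summed to 14106 CPM in 377P (8 of 10 detected, Lpo and Bpifb1 at 0) and 103255 CPM in RP (10 of 10), and their part in the difference was not tested.

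Alox12 (ENSMUSG00000000320, chromosome 11, 70241457 to 70255353, minus strand) encodes the platelet-type 12-lipoxygenase, which is also known from squamous epithelium. Most of its UMIs were in keratinocyte-like cells, at 4.45 CPM in 377P (228 UMIs) and 15.3 CPM in RP (616 UMIs), a ratio of 3.43 (2.94 to 4.01). Cluster 37 again stood high, at 51.4 CPM (58 UMIs, 39.1 to 66.5) and 53.4 CPM (380 UMIs, 48.1 to 59.0), a level that 13 cells of 377P in cluster 8 also had (51.8 CPM, 23 UMIs), and in cluster 37 the libraries did not differ beyond counting error (ratio 1.04, 0.785 to 1.39). That cluster made up 1.53% of the class in 377P and 11.9% in RP. The remainder of the class was split by library, with 76.7% of the 377P cells in cluster 2 and 21.2% in cluster 7, and 47.1% of the RP cells in cluster 47, 20.7% in cluster 38 and 18.5% in cluster 8. Over clusters 2 and 47 alone the ratio was 1.15 (0.681 to 1.91), over clusters 7 and 8 it was 1.38 (1.07 to 1.79), and without cluster 37 it was 2.09 (1.71 to 2.57). The level was 1.27 and 1.46 CPM over clusters 2 and 47 and 9.95 and 13.7 CPM over clusters 7 and 8, with 377P first. Cluster 38, with no cell of 377P, stood at 11.6 CPM (81 UMIs) and is in neither pair. Each of these clusters belonged almost wholly to 1 library, so cluster and library cannot be told apart.

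A second site of Alox12 was blood endothelium. Cluster 5, led by Flt1, Fabp4, Kdr and Plvap, genes known from capillary endothelium, had 21.6 CPM in 377P (11 UMIs in 66 cells) and 18.4 CPM in RP (29 UMIs in 385 cells), against 1.28 and 2.35 CPM in the other blood endothelium-like clusters, 16.9 times in 377P (5.01 to 72.8) and 7.81 times in RP (3.87 to 16.8). No platelet class was found. The 6 platelet markers summed to 80.5 and 93.7 CPM in cluster 5 (3 of 6 detected, Gp9, Gp1bb and Gp6 at 0 in both), to 93.4 and 77.3 CPM in the blood endothelium-like class (5 and 4 of 6) and to 17.7 and 23.7 CPM in cluster 37 (2 and 4 of 6), and their part in the Alox12 levels was not tested. Alox12 had no UMI in neutrophil-like or dendritic cell-like cells. In gland or respiratory epithelium-like cells Alox12 was at 4.002 CPM (12 UMIs) and 1.08 CPM (27 UMIs), a ratio of 0.269 (0.132 to 0.584); without cluster 40 the ratio was 0.503 (0.186 to 1.70), and the log2 ratio was -0.75 in place of -1.89 when the libraries were clustered separately. In fibroblast-like cells it was at 0.529 CPM (11 UMIs) and 1.39 CPM (29 UMIs), a ratio of 2.64 (1.28 to 5.85) between levels at which free RNA from keratinocytes cannot be told apart from the cells' own.

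**Figure D3:**
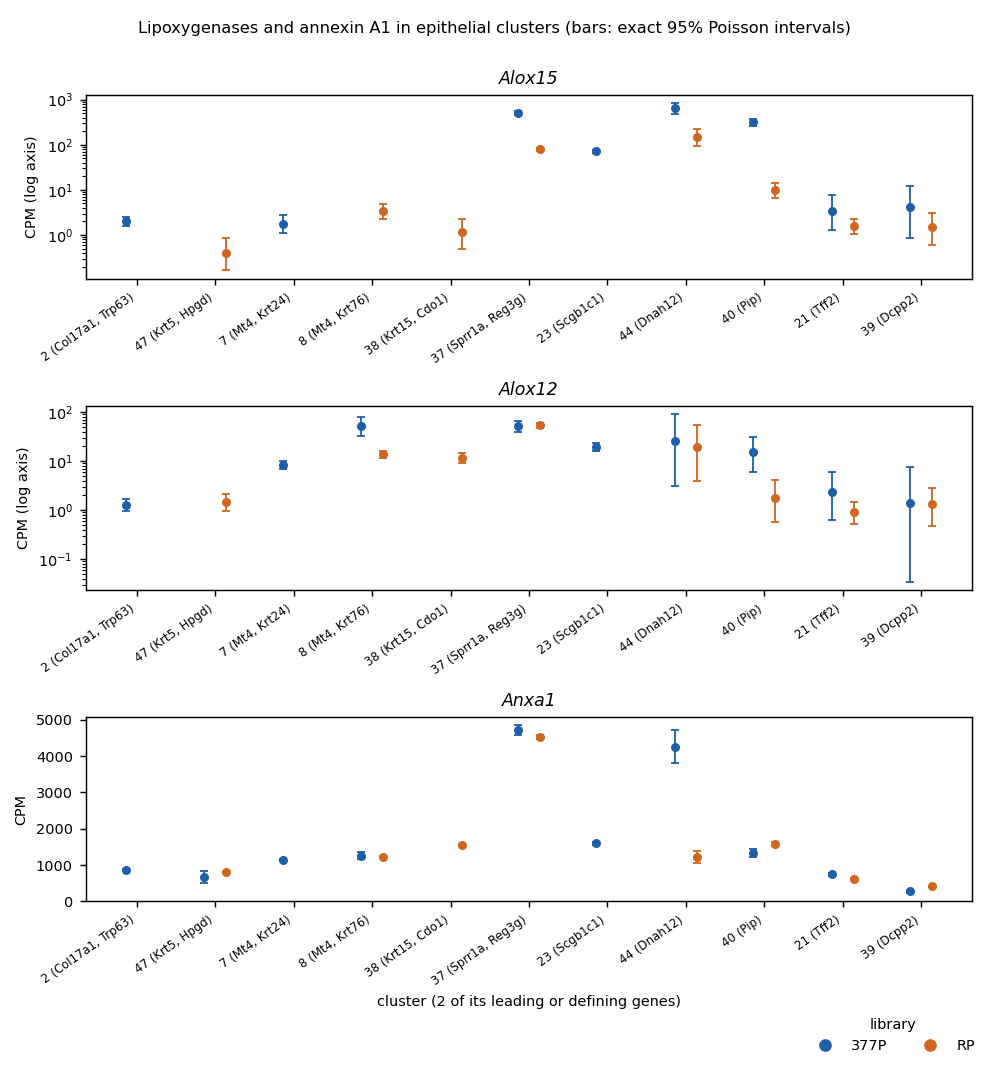
CPM of Alox15 and Alox12 (log axes) and of Anxa1 (linear axis) in 11 epithelial clusters, points for libraries with at least 5 cells in the cluster and at least 1 UMI on the log axes, bars for exact 95% Poisson intervals. All 3 genes are high in cluster 37, where Alox12 and Anxa1 have nearly the same level in both libraries and Alox15 does not.

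Anxa1 (ENSMUSG00000024659, chromosome 19, 20373428 to 20390944, minus strand) encodes annexin A1 and had 86535 UMIs in the kept cells of 377P and 112294 in those of RP. It was present in all 12 classes and stood highest in keratinocyte-like cells, at 1018 CPM (52171 UMIs) and 1683 CPM (67861 UMIs). Neutrophil-like cells followed at 945 CPM (505 UMIs) and 941 CPM (520 UMIs). In 377P the intervals of both classes overlapped (1010 to 1027 and 864 to 1031 CPM). Without cluster 37, keratinocyte-like cells stood at 935 CPM in 377P and 1071 CPM in RP. Levels were lowest in T or NK-like cells (100 and 157 CPM) and B or plasma-like cells (107 and 154 CPM). Fibroblast-like cells (689 and 721 CPM) and gland or respiratory epithelium-like cells (718 and 688 CPM) could not be ranked, since their order changed between the libraries. The neutrophil-like ratio was 0.996 (0.880 to 1.13). The UMIs of neutrophil-like cells were uneven, with 29.5% and 28.1% of them in 5 cells. After thinning, 42.6% and 45.4% of neutrophil-like cells had a UMI (62.3% and 60.3% unthinned, median depths 2525 and 1775.5 UMIs), against 10.8% and 15.3% of B or plasma-like cells (25.5% and 29.7% unthinned, median depths 2414.5 and 1953 UMIs). Keratinocyte-like cells held 60.3% and 60.4% of all Anxa1 UMIs, and keratinocyte markers summed to 5160 and 4873 CPM in the neutrophil-like class (10 of 10 detected); their part in its Anxa1 level was not tested.

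The keratinocyte-like ratio of Anxa1 was 1.65 (1.63 to 1.67). Cluster 37 had the highest level of the class, 4722 CPM in 377P and 4537 CPM in RP (ratio 0.961), which was 5.05 times the level of the other keratinocyte-like clusters in 377P and 4.24 times in RP. Without that cluster the ratio was 1.14 (1.13 to 1.16), over clusters 2 and 47 it was 0.923 (0.905 to 0.942), and over clusters 7 and 8 it was 1.08 (1.06 to 1.11). Cluster 38, with no cell of 377P, stood at 1553 CPM (10798 UMIs) and is in neither pair. In T or NK-like cells the ratio was 1.57 (1.39 to 1.77) and in B or plasma-like cells 1.44 (1.25 to 1.67); free RNA from keratinocytes in these cells cannot be told apart from their own.

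Of the 108 pairs of a gene and a class, 65 had at least 20 UMIs over both libraries and could be given a ratio. The level was higher in RP for 41 of them and in 377P for 24, and the median of the log2 ratios was 0.09. A difference of at least 2-fold was seen in 9 of the 65 (13.8%), against 8.59% of all 144134 gene and class pairs with that many UMIs. In RP 6 were higher, against a background of 5.41%, and in 377P 3, against 3.17%. The 9 were Alox12 in keratinocyte-like, fibroblast-like and gland or respiratory epithelium-like cells, Alox15 in gland or respiratory epithelium-like and B or plasma-like cells, Ltb4r1 in dendritic cell-like and T or NK-like cells, Alox5 in dendritic cell-like cells and Cmklr1 in keratinocyte-like cells. For Alox5 (ratio 2.01, 0.789 to 5.54) and for Alox15 in B or plasma-like cells (28 and 2 UMIs, ratio 0.422, 0.0487 to 1.67) the interval included 1.

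By class, none of the 6 measured genes in neutrophil-like cells and none of the 7 in macrophage-like cells was 2-fold apart, where 9.64% and 7.25% of all genes were. Under some alternatives neutrophil-like cells did pass 2-fold: the log2 ratio of Lta4h was -1.32 when the libraries were clustered separately, -1.36 as a mean over cells and -1.04 without the top cell of each library, and that of Fpr2 was -1.11 after thinning. In keratinocyte-like cells 2 of 8 were, against 11.5%, in dendritic cell-like cells 2 of 6 against 10.4%, in gland or respiratory epithelium-like cells 2 of 6 against 10.4%, in fibroblast-like cells 1 of 7 against 6.26%, in T or NK-like cells 1 of 5 against 9.8% and in B or plasma-like cells 1 of 5 against 9.23%. None of the 6 in blood endothelium-like (7.33% of all genes), the 2 in lymphatic endothelium-like (6.78%), the 5 in perivascular-like (6.07%) and the 2 in Schwann-like cells (8.25%) was. In neutrophil-like cells 5 of the 6 genes had a ratio below 1, and the median of the log2 ratios was -0.33 against -0.05 over all genes of the class. The interval lay below 1 for Lta4h and Ltb4r1, while those of Fpr2, Alox5ap, Anxa1 and Alox5 included 1, and Alox5ap changed sign with doublets kept (log2 ratio 0.05) and after thinning (0.11). In macrophage-like cells 6 of 7 were higher in RP, with a median of 0.23 against -0.06; Ltb4r1 was the exception. Within clusters the ratio of Alox5 was below 1, at 0.665 (0.324 to 1.34) in cluster 25 and 0.849 (0.481 to 1.56) in cluster 26, and cluster 26, with the higher level in both libraries, made up 12.2% of the class in 377P and 36.9% in RP.

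**Figure D4:**
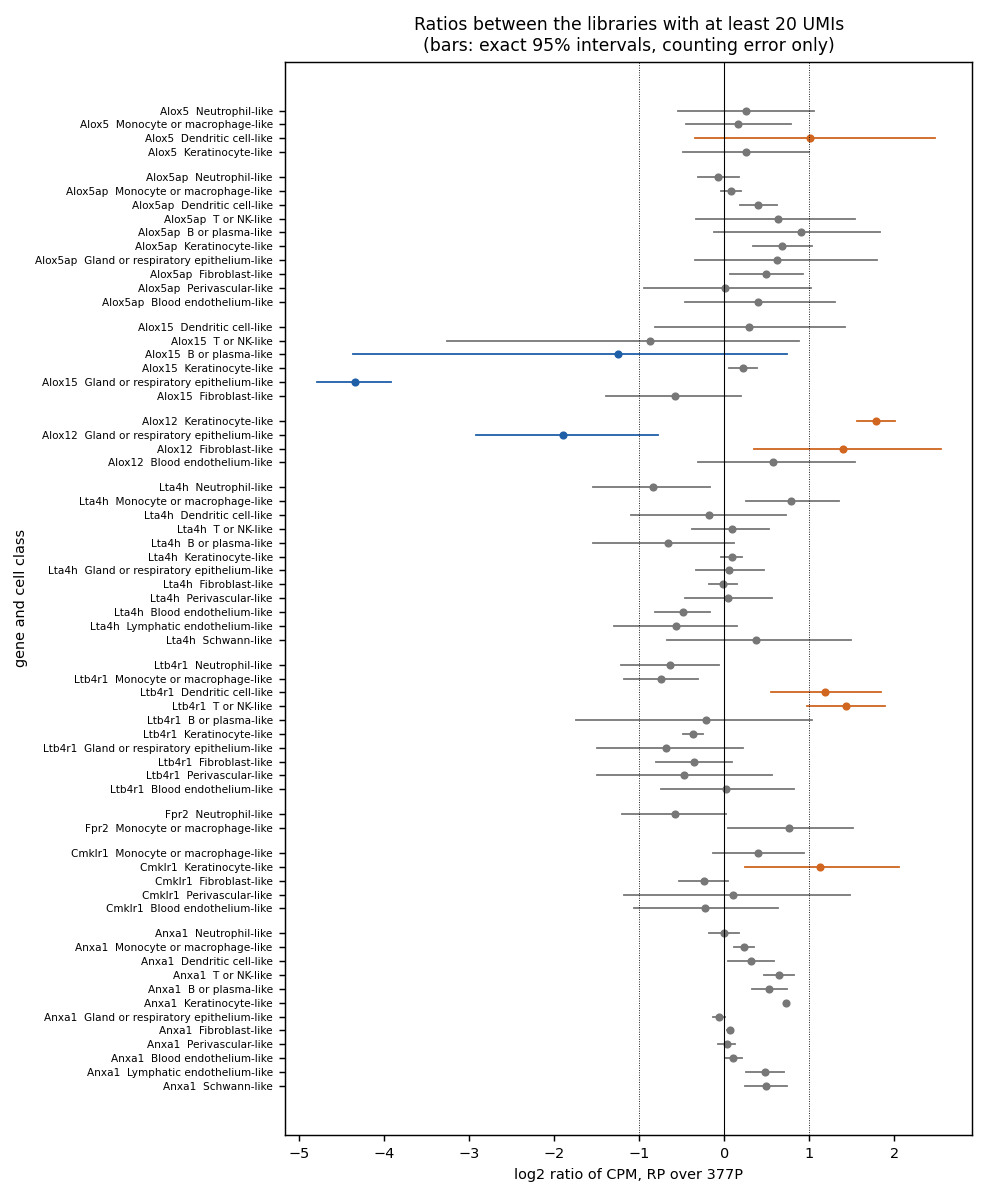
Log2 ratio of CPM, RP over 377P, for the 65 pairs of gene and class with at least 20 UMIs; points are ratios, bars exact 95% intervals for counting error, dotted lines mark 2-fold, and the 9 pairs beyond them are in colour. Most grey points lie near 0, and the lowest point is Alox15 in gland or respiratory epithelium-like cells.

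A list of 55 other genes of the pathway was taken along, of which 53 were found under their symbols. Of 401 measured pairs, 53 (13.2%) were at least 2-fold apart, 34 with RP higher and 19 with 377P higher, and the median of the log2 ratios was 0.04. That share stood against the 8.59% of all pairs given above. The phospholipase gene Pla2g10 made up 7 of the 53. It was higher in RP in all 8 classes in which it was measured, among them gland or respiratory epithelium-like cells, its main site (44.7 and 82.3 CPM), and fibroblast-like cells (0.577 and 5.48 CPM), and the gland markers given above were also higher in RP. Without it 46 of 393 pairs remained (11.7%).

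Among genes that use leukotriene A4 for the cysteinyl branch, Ltc4s, encoding leukotriene C4 synthase, stood at 25.6 CPM (72 UMIs) and 70.0 CPM (271 UMIs) in macrophage-like cells, a ratio of 2.73 (2.10 to 3.59). In cluster 26, whose share of the class was larger in RP, it stood at 101 and 216 CPM (ratio 2.14, 1.51 to 3.10), and in cluster 25 at 13.96 and 13.26 CPM (0.950, 0.580 to 1.56; the split by cluster was chosen after seeing the data). It stood at 32.0 and 10.1 CPM in lymphatic endothelium-like cells, a ratio of 0.315 (0.161 to 0.589). Of the genes that inactivate these mediators, Cyp4f18, a leukotriene B4 hydroxylase of mouse neutrophils, was at 260 and 373 CPM in neutrophil-like cells (ratio 1.43, 1.15 to 1.79), Ptgr1 there at 61.7 and 23.5 CPM (0.381, 0.184 to 0.744), and Hpgd, encoding 15-hydroxyprostaglandin dehydrogenase, at 192 and 151 CPM in keratinocyte-like cells (0.788, 0.763 to 0.813). Of the receptors, Cysltr1 in T or NK-like cells was at 2.84 and 10.5 CPM, and Gpr18, described as a receptor of resolvin D2, was at 37.7 and 18.03 CPM there and at 36.6 and 24.6 CPM in B or plasma-like cells. Ccrl2, a chemerin-binding receptor, and Fpr1, the formyl peptide receptor, were highest in neutrophil-like cells at 481 and 603 CPM and at 292 and 224 CPM.

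The protein ligands differed most in fibroblast-like cells, where 5 of 5 measured were lower in RP and 3 of them at least 2-fold, against 6.26% of all genes in that class: the serum amyloid genes Saa1 (13.9 and 0.481 CPM), Saa2 (5.67 and 0.0962 CPM, from 118 and 2 UMIs) and Saa3 (67.4 and 7.55 CPM). The class lay in different clusters per library, with 56.0% of the 377P cells in cluster 3 and 17.8% in cluster 4, and 36.1%, 31.8% and 14.6% of the RP cells in clusters 16, 27 and 45. In neutrophil-like cells Saa3 went the other way, at 20.6 CPM (11 UMIs) and 154 CPM (85 UMIs), and Camp, the cathelicidin gene whose product also acts on FPR2, was at 14252 and 9976 CPM (ratio 0.700, 0.676 to 0.725). In macrophage-like cells the median log2 ratio of the 35 measured genes of the list was -0.05 against -0.06 over all genes, in keratinocyte-like cells 0.23 over 48 genes against 0.05, and in neutrophil-like cells 0.12 over 26 genes against -0.05.

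The genes whose levels ran most like each member were sought over the 24 values of the 12 classes in both libraries, among 7079 genes, by Pearson correlation of log2(CPM + 1); the values of a library share its depth and free RNA, and the correlations are descriptions. For Alox5ap they were Mefv, Il1b and Gpr141 (r = 0.98 each), for Ltb4r1 Adam8 (0.94), Il1rn (0.87) and H2afz (0.86), and for Cmklr1 Daglb (0.90), Fn1 (0.86) and Grn (0.85). For Lta4h they were Ldhc (0.83), Fbxl5 (0.79) and Mrgpra2b (0.78), for Alox12 Slc25a25 (0.74), Itga3 (0.73) and Klf12 (0.72), and for Alox15 Macc1 (0.71), Spint1 (0.69) and Cldn4 (0.67). Anxa1 ran most like 1500015L24Rik (0.94), a long non-coding gene that overlaps it on the opposite strand without shared exon bases. Whether reads of this pair were kept apart is not known here either. Rab24 (0.83) was also among the genes named for it. Alox5 and Fpr2, with 289 and 226 UMIs in kept cells, were too thinly counted to be included.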

How the data were processed

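The authors deposited whole-number UMI counts per gene and barcode, with no normalisation, from Cell Ranger 7.0.1 per the file headers. The submitters' processing notes list STAR and mm10 as well. For the annotation release, strand and intronic reads, nothing is stated in the sources used here. Barcodes needed 200 genes or more and no more than 20% mitochondrial UMIs, and Scrublet (Scanpy 1.11.5, expected share 12%) removed 836 (377P) and 569 (RP) doublets. Counts scaled to 10000 per cell and log-transformed gave 3000 variable genes, 40 principal components, 20 neighbours and Leiden clusters (igraph 0.11.9, resolution 2.0) of both libraries together, without integration. Clusters were named from listed markers, at least 3 detected, by limits set after the clusters were seen. Members and lists were chosen with earlier results of these data known. UMIs were summed per class and library. Intervals are exact Poisson, Clopper-Pearson or for a ratio of Poisson counts (SciPy 1.17.1), and a count of 0 was set to 3 in log2 ratios. The ratio step was tested on simulated data. Beside the 9 members, up to 2 pathway genes per direction and class were eligible to be named, by the interval bound nearest to 1; Fpr1, Ccrl2, Rarres2 and Saa3 in their main classes were added after their values were seen. Alternatives changed the resolution, gating, filters, doublets, depth, scaling and weighting. Coordinates are from GENCODE vM21 (GRCm38). One gene that the rule for similar patterns names is not reported here.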

Additional observations from a re-analysis of the deposited data

Results flagged for a closer look

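The difference between the libraries in Alox12 ran in opposite directions in different classes. The log2 ratio of RP over 377P was 1.78 in keratinocyte-like cells and 1.40 in fibroblast-like cells, but -1.89 in gland or respiratory epithelium-like cells, each with an interval on its own side of 0. The value in gland or respiratory epithelium-like cells was -0.75 with each library clustered on its own, and without cluster 40 the ratio was 0.503, with an interval (0.186 to 1.70) that includes 1. In keratinocyte-like cells the ratio was 1.04 (0.785 to 1.39) in cluster 37 and 2.09 (1.71 to 2.57) without it. It was 1.15 (0.681 to 1.91) over clusters 2 and 47 and 1.38 (1.07 to 1.79) over clusters 7 and 8. Clusters 7 and 8 included 13 cells of 377P in cluster 8 that stood near the level of cluster 37, as given above. The fibroblast-like value came from 11 and 29 UMIs, at 0.529 and 1.39 CPM, where free RNA from keratinocytes cannot be told apart. With 1 library per title, the difference between the classes was not tested. The class sizes were unequal, with 200 gland or respiratory epithelium-like cells in 377P, and 12 UMIs of the gene were behind the value of that library.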

How the results depend on the processing

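No paired analysis was possible because each title has 1 library, and for the same reason no replicate could be left out. Changes of processing moved log2 ratios of RP over 377P as follows, and where no construction shows it the cause was not tested. Alox15 in gland or respiratory epithelium-like cells (-4.34) was -1.39 with a per-cell marker gate and -3.16 as a mean over cells. Alox12 in keratinocyte-like cells (1.78) was 1.10 with the gate, 2.09 with each library clustered on its own, 1.19 with cells thinned to 1000 UMIs and 1.47 as a mean over cells. Anxa1 there (0.72) was 0.70 at resolution 1.0, 0.55 with the gate, 0.84 with separate clustering, 0.67 with the median ratio set to 0, 0.68 with a total that leaves out mitochondrial, ribosomal and dominant genes, 0.56 after thinning and 0.55 as a mean over cells. Cmklr1 in macrophage-like cells (0.40) was -0.16 after thinning, and in keratinocyte-like cells (1.13) it was -0.13 with the gate. Pairs that fell under 2-fold were Alox12 in gland or respiratory epithelium-like cells (-1.89), at -0.75 with separate clustering, -0.86 as a mean over cells and -0.99 without cluster 40, Alox15 in B or plasma-like cells (-1.25), at -0.70 as a mean over cells, and Alox5 in dendritic cell-like cells (1.01), at 0.69 with doublets kept and 0.86 with at most 10% mitochondrial UMIs. Alox5ap in neutrophil-like cells (-0.07) was 0.05 with doublets kept and 0.11 after thinning. The number of pairs at least 2-fold apart (9) was 6 to 13 under 10 alternatives and 23 with no minimum and a floor of 1 count, which admits pairs of few UMIs. Alternatives added after seeing the data gave -3.20 for Alox15 without the top cell of each library and -1.17 without cluster 40. For Alox12 they gave 1.07 without cluster 37, 0.21 over clusters 2 and 47 and 0.47 over clusters 7 and 8. For Anxa1 the same 3 gave 0.20, -0.12 and 0.12. In neutrophil-like cells Lta4h stayed between -1.36 and -0.76 and Fpr2 between -1.11 and -0.38 in the alternatives that gave a value. No dendritic cell-like class with enough cells was found at resolution 1.0, with at least 1000 UMIs per cell, with separate clustering or with the gate. Depth limits Alox5 and Fpr2, with 289 and 226 UMIs in kept cells.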
